A study of Mus musculus with 2 samples.

Results

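Open chromatin was described at 10 genes that carry fatty acids into muscle and burn them, in the calf muscle (gastrocnemius) of mice. The genes were Lpl, Cd36 and Fabp3 for uptake, Cpt1b and Slc25a20 for the carnitine shuttle, Acadm, Acadl and Hadha for β-oxidation, and Pdk4 and Ucp3, which act where fat and sugar burning meet. They were chosen by name, with earlier results of these data known, and are 10 of 21839 protein-coding genes of GENCODE M21. Peaks and footprints were taken from each gene body plus 20 kb on either side (the gene's window), on the mouse build mm10, which gave 99 of 131398 peaks in replicate 1 and 98 of 91567 in replicate 2.

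DNase-seq maps where the enzyme DNase I can cut nuclear DNA, and so where regulatory DNA is accessible. The study had 2 samples in 1 group: gastrocnemius of male adult B6CASTF1/J mice (an F1 hybrid strain) at 18 to 20 months, with no treatment named. They were labelled biological replicates 1 and 2, with different biosample labels but the same donor label, so whether they came from separate animals is not known and their spread may be technical. With 1 group there was no contrast and no test, and all values below are descriptions. No read depth was given with the files. Shares carry 95% Clopper-Pearson (exact binomial) intervals, which reflect counting error alone.

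Muscle takes up fatty acids that lipoprotein lipase frees from lipoproteins at the capillary wall and those that albumin carries. The acids cross the membrane with the help of CD36, bind a cytosolic carrier, are activated with coenzyme A and enter mitochondria as carnitine esters, where β-oxidation shortens them. Many genes of the pathway are known targets of the nuclear receptors PPAR and ERR and of their coactivator PGC-1α.

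The labelled tissue was read from its markers. All 8 muscle fibre markers (Ckm, Actn3, Mylpf, Tnnt3, Acta1, Des, Mybpc2 and Pvalb) had a promoter peak in both replicates, and none of 5 liver markers had one in either. Endothelial markers were open in 7 of 7 in replicate 1 and 6 of 7 in replicate 2, with far lower signals than muscle markers (0.284 to 1.84 over both replicates, against 2.39 to 6.47). Of 6 adipocyte markers 4 and 3 were open, with no promoter peak at Cidec or Cfd. Of 5 macrophage markers 3 were open in each replicate, with none at Ptprc or Csf1r. All 5 fibro-adipogenic and all 4 mural markers were open in both, and 1 of 5 heart markers. Fibro-adipogenic signals overlapped those of muscle: Col1a1 had 4.54 and 4.47, above Mylpf, Tnnt3, Acta1 and Pvalb in both replicates. Fewer cells of a type and less open chromatin per cell cannot be told apart in bulk tissue.

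All 10 genes had a promoter peak in both replicates. The promoter was defined as the 1000 bp before and after any protein-coding start, and a peak had to overlap it by at least 1 bp. Among all protein-coding genes such a peak was found at 65.6% in replicate 1 and 63.5% in replicate 2, and at 62.4% in both. Promoters rich in CpG (observed over expected CpG of at least 0.6 within 500 bp of a start) were open in both replicates for 92.6% of genes, and CpG-poor promoters for 30.5%. Fabp3, Acadl and Hadha had CpG-rich promoters. The other 7 were CpG-poor, with Acadm at 0.590 just under the limit and Ucp3 lowest at 0.198. All 7 of these CpG-poor promoters were open. Because the genes were chosen with earlier results of these data known, these counts describe them alone.

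The promoter signals spanned most of the range of all genes. The signal is the authors' value for each peak, in an unstated unit scaled separately in each list, so ranks within a replicate are used to read across replicates. The median of the 10 strongest promoter peaks was 2.76 in replicate 1 and 2.11 in replicate 2, against 3.16 and 3.41 over all genes with a promoter peak. As percentiles among those genes the 10 ranged from 19.8 to 90.1 in replicate 1 and from 15.6 to 92.9 in replicate 2, with medians of 45.2 and 32.9. The 4 genes highest in rank (Acadm, Pdk4, Acadl and Hadha) lay between percentiles 71.3 and 92.9 over both replicates, and the other 6 between 15.6 and 46.6. Means of the deposited units, with the separate scaling left in, were highest for Acadm at 8.64 ± 1.07 (SD, n = 2). They were lowest for Cd36 at 0.962 ± 0.0172 (SD, n = 2), where the percentiles were 19.8 and 15.6.

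**Figure D1:**
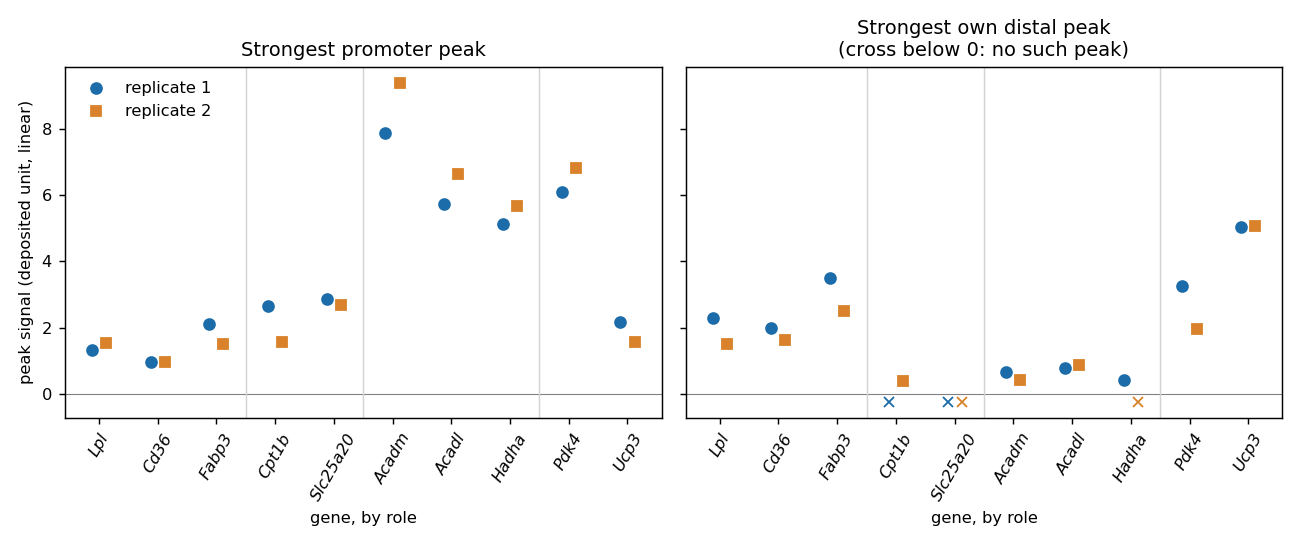
Signal of the strongest promoter peak (left) and of the strongest peak over 1000 bp from every start whose nearest start is the gene's own (right), for each gene in replicate 1 (circles) and replicate 2 (squares), on one linear scale in the deposited unit; vertical lines separate uptake, carnitine shuttle, β-oxidation and the Pdk4 and Ucp3 pair. The β-oxidation genes sit between 5.14 and 9.40 on the left and at or below 0.861 on the right, while Ucp3 is lower on the left (2.18 and 1.55) than on the right (5.05 and 5.07).

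Lpl (ENSMUSG00000015568, chr8:68880491-68907448, plus strand) encodes lipoprotein lipase. Its promoter peak covered the start and had signals of 1.31 in replicate 1 and 1.54 in replicate 2 (percentile 24.9 in replicate 1 and nearly the same in replicate 2). Both replicates called the same 400 bp there. Beyond the promoter Lpl had many peaks: all 13 window peaks of replicate 1 and all 11 of replicate 2 had the Lpl start as their nearest, 10 and 9 of them were shared between replicates, and 10 and 8 were distal (over 1000 bp from every protein-coding start).

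A peak in an intron near the 3′ end of Lpl, 22570 bp after the start, had signals of 2.28 and 1.49, above the promoter in replicate 1 and just below it in replicate 2. Shared distal peaks also lay 14071 bp before the start (1.50 and 1.47), 19411 bp before it (1.05 and 1.05) and 4291 bp before it (1.21 and 0.827). Downstream of the gene, shared peaks stood 28190 bp (1.29 and 0.850) and 34350 bp (1.11 and 0.626) from the start. In the deposited units, the promoter and the 2 farthest upstream peaks were as high or nearly as high in replicate 2, and the others were lower there. By rank among all peaks of each list the promoter was nearly level, at percentiles 77.2 and 76.3. Those 2 upstream peaks ranked lower in replicate 2, at 80.5 and 75.0 (14071 bp) and 71.1 and 64.1 (19411 bp). The intron peak is shown because its E-box CAGCTG, a form bound by myogenic factors such as MyoD, lay inside a footprint in both replicates. A footprint is a short stretch within open DNA that the enzyme spares. A match is said to be inside one when a single footprint covers at least 50% of its bases. Of 27 CAGCTG sites in the peaks of all 10 windows, 3 lay inside a footprint in both replicates and 8 in at least 1. The share of sites inside a footprint was not counted over all peaks, here or for the elements below. Capitals mark the E-box, and the letters, as those of every sequence below, are of the plus strand of mm10:
Lpl intron (chr8:68903061-68903280): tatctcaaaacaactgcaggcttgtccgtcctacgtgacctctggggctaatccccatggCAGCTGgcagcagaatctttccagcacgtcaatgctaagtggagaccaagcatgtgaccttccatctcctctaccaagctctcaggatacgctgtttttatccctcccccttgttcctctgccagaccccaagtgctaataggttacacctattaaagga

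Cd36 (ENSMUSG00000002944, chr5:17781690-17888801, minus strand) encodes a fatty acid translocase found on muscle fibres, endothelium and fat cells. Its promoter had the lowest signals of the 10, 0.975 and 0.950, at percentiles 19.8 and 15.6. The annotation gives Cd36 6 protein-coding starts in 3 clusters, and the peak called in both replicates covered the middle cluster, 17849729 and 17849792. Peaks within 250 bp of the other clusters were called in replicate 1 alone, with signals of 0.406 at 17888747 and 17888801, the 5′-most, and 0.513 at 17835696 and 17835717. With the 5′-most start alone, Cd36 would thus count as open in replicate 1 and not in replicate 2.

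The strongest Cd36 peak was intronic, 11847 bp downstream of the 5′-most starts, with signals of 1.98 and 1.62, at percentiles 86.3 and 77.6 among all peaks of each list. It was higher than the Cd36 promoter in both replicates. Only 4 peaks of the Cd36 window were shared between replicates. The other 12 of replicate 1 ranged from 0.274 to 0.843, and the other 6 of replicate 2 from 0.179 to 0.291. The intron peak is shown because TGACCTTTA, which differs by 1 base from the reverse complement of the ERR element TCAAGGTCA, lay inside a footprint in both replicates. An Sp1 box (GGGCGG) lay inside a footprint in replicate 2. Capitals mark both:
Cd36 intron (chr5:17876721-17876900): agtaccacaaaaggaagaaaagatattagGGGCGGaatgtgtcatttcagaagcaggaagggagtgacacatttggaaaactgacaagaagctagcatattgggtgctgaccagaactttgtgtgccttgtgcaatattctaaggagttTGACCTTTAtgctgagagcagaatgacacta

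Fabp3 (ENSMUSG00000028773, chr4:130308595-130315463, plus strand) encodes the fatty acid binding protein of heart and skeletal muscle. Its promoter peak had signals of 2.11 and 1.51 (percentiles 36.4 and 24.6) and also covered the start of Gm10570, which lies 79 bp away, so the peak belongs to both. Fabp3 also had a pair of shared distal peaks upstream. A peak 8995 bp before the start had signals of 3.51 and 2.49, above the promoter in both replicates. A second one 1575 bp before the start in replicate 1 (1515 bp in replicate 2) had 2.04 and 1.60. It held TGACCTTGA (chr4:130306841-130306849), the exact ERR element read on the plus strand as its reverse complement and the only exact match in all peaks of the 10 windows. That element was outside footprints in both replicates, and 0.365% and 0.289% of all peaks held one.

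Cpt1b (ENSMUSG00000078937, chr15:89416405-89425863, minus strand) encodes the muscle form of carnitine palmitoyltransferase 1, which commits fatty acids to mitochondria. Its promoter peak had signals of 2.65 and 1.55 (percentiles 43.9 and 25.2), the widest gap in percentile between replicates among the 10. The peak lay 78 bp upstream of the start in replicate 1 and 38 bp in replicate 2. It is shown for the match to the MEF2 consensus, an element of muscle genes, at chr15:89426079-89426088. This match was inside a footprint in replicate 1 and not in replicate 2. It alone, of the 7 exact MEF2 matches in peaks of the 10 windows, lay inside a footprint in either replicate. No such share was counted over all peaks. Capitals mark it:
Cpt1b promoter (chr15:89425941-89426140): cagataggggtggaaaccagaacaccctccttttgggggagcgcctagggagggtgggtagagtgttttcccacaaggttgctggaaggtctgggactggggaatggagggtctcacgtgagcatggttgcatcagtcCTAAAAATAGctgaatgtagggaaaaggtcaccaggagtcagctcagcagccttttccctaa

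No distal peak of its own was called at Cpt1b in replicate 1, and the strongest of replicate 2 had a signal of 0.375. The strongest peaks of the window belonged to the starts of Chkb and C730034F03Rik, 3498 to 3978 bp upstream of Cpt1b, with signals from 3.44 to 3.76. These neighbours, like Arih2 below, were named after their values were seen. Chkb, which encodes choline kinase β, ends 496 bp from Cpt1b on the same strand. In the peak at the C730034F03Rik start, TGACCCCTGACCT at chr15:89429366-89429378 differed by 1 base from DR1, the pair of AGGTCA repeats 1 base apart that PPAR and RXR bind, and it lay inside a footprint in replicate 1.

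Slc25a20 (ENSMUSG00000032602, chr9:108662088-108684641, plus strand) encodes the carrier that exchanges acylcarnitine for carnitine across the inner mitochondrial membrane. Its promoter peak had signals of 2.87 and 2.67 (percentiles 46.6 and 40.6) and covered the start in both replicates. It had no distal peak of its own in either. Other window peaks lay nearest to the starts of Arih2 and Prkar2a, whose promoters reached 3.52 and 3.83 (Arih2) and 2.76 and 2.93 (Prkar2a). The strongest shared peak outside promoters in this window lay in an intron of Prkar2a, 41383 bp from the Slc25a20 start, with 1.43 and 0.878. It is shown for a myogenic E-box inside a footprint in both replicates (capitals), and its nearest start is that of Prkar2a:
Prkar2a intron (chr9:108703481-108703660): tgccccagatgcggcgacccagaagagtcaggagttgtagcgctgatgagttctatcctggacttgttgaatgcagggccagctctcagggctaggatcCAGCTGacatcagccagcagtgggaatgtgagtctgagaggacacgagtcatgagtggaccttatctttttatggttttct

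Counting only peaks nearest to their own start, the β-oxidation genes had promoters far above any distal peak. At Lpl the strongest distal peak was above the promoter in replicate 1 and just below it in replicate 2. Acadm (ENSMUSG00000062908, chr3:153922357-153944632, minus strand) encodes medium-chain acyl-CoA dehydrogenase. Its promoter was the strongest of the 10, with signals of 7.88 and 9.40, percentiles 90.1 and 92.9, over the same 300 bp in both replicates. Its own distal peaks reached only 0.645 in replicate 1 and 0.425 in replicate 2. A single distal peak of its own, in an intron 2564 bp after the start, was shared (0.457 and 0.425). That peak is shown as the only such site of the gene, and it held an Sp1 box inside a footprint in replicate 2 (capitals):
Acadm intron (chr3:153941682-153941882): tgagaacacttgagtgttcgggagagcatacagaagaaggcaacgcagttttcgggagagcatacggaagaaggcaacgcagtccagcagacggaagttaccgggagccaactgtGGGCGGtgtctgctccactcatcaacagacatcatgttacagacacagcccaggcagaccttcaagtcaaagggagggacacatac

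Acadl (ENSMUSG00000026003, chr1:66830839-66863277, minus strand) encodes long-chain acyl-CoA dehydrogenase. It had a pair of promoter peaks in both replicates. The stronger one lay within the 1000 bp of the promoter but wholly in an intron, 337 bp after the start in replicate 1 and 317 bp in replicate 2, with signals of 5.75 and 6.64 (percentiles 76.7 and 80.2). The one at the start itself had 2.56 and 3.47. Its own shared distal peak, 8344 bp upstream, had 0.787 and 0.861. A stronger shared distal peak, 1.86 and 1.84, lay in an Acadl intron 24497 bp after the start (chr1:66838601-66838780), but there the start of Kansl1l was nearer. The stronger promoter peak is shown for an Ets element (CCGGAAG, printed here as its reverse complement) inside a footprint in both replicates and a sequence 1 base away from the ERR element inside a footprint in replicate 2. Capitals mark both:
Acadl intron (chr1:66862741-66862940): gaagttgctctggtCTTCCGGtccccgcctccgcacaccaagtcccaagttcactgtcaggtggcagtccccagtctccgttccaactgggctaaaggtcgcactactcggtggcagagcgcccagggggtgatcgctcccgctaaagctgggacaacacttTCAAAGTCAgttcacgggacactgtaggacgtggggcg

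Hadha (ENSMUSG00000025745, chr5:30118304-30155162, minus strand) encodes the α subunit of the mitochondrial trifunctional protein, and Hadhb, its neighbour, the β subunit. A single peak covered both starts, which lie 86 bp apart and point away from each other, with signals of 5.14 and 5.67 (percentiles 71.3 and 72.8). This peak held 9 footprints in each replicate, and no peak in the 10 windows held more. It also held 4 Sp1 boxes (GGGCGG on either strand), 3 of them inside a footprint in both replicates. The only distal peak of its own was an intron peak of replicate 1 with 0.421. A stronger distal peak, 2.06 and 1.54, lay 4429 bp inside Hadhb, with the Hadhb start as its nearest.

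Pdk4 (ENSMUSG00000019577, chr6:5483351-5496309, minus strand) encodes pyruvate dehydrogenase kinase 4, which spares glucose when fat is burned. Its promoter signals were 6.09 and 6.81 (percentiles 79.5 and 81.4), the highest among the 10 after Acadm in both replicates. It also had a pair of shared peaks far upstream. The first, 13072 bp before the start, had 3.26 and 1.97, and the second, 13512 bp before it, had 2.48 and 1.56. A further shared peak 2412 bp upstream in replicate 1 (2572 bp in replicate 2) had 1.38 and 0.626. In the deposited units the promoter was higher in replicate 2, and each of these upstream peaks was lower there. Promoters were also higher in replicate 2 at the median over all genes open in both, relative to all shared peaks (values below). The first is shown, chosen after its values were seen, for a match to the MEF2 consensus outside footprints in both replicates (capitals):
Pdk4 upstream (chr6:5509381-5509580): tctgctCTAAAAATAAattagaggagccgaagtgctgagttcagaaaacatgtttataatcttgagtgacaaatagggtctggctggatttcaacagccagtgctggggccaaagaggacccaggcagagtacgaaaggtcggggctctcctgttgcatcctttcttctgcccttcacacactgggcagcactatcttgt

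Ucp3 (ENSMUSG00000032942, chr7:100472990-100486432, plus strand) encodes a mitochondrial carrier of muscle whose expression rises with fatty acid supply. Its promoter had signals of 2.18 and 1.55 (percentiles 37.4 and 25.2). Peaks at 3 places around it were stronger than the promoter in both replicates. The peak 7051 bp before the start had 5.05 and 5.07, percentiles 96.6 and 94.8 among all peaks of each list, with 4 footprints in each replicate. Another, 11031 bp before the start in replicate 1, had 3.52, and the peak that overlapped it in replicate 2 had 2.65. An intron peak 1808 bp after the start had 2.50 and 1.71. Both upstream peaks lie in introns of C2cd3, a ciliary gene that ends between them and Ucp3, but the Ucp3 start was their nearest.

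The peak at 7051 bp was the strongest distal peak of the 10 genes in both replicates, with nearly equal values. It is shown, chosen after its values were seen, for 2 copies of the myogenic E-box and an Sp1 box printed as its reverse complement (capitals), none of them inside a footprint:
Ucp3 upstream (chr7:100465741-100465940): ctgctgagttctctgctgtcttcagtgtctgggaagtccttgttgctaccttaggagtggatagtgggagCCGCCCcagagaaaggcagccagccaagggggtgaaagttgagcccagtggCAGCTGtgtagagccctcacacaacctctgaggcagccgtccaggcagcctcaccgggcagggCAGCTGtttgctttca

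Promoters and distal peaks were then set side by side. The strongest own distal peak was higher than the promoter in both replicates for Cd36, Fabp3 and Ucp3, and in replicate 1 for Lpl, where replicate 2 had 1.49 against a promoter of 1.54. It was lower than the promoter in both replicates for Pdk4, Acadm and Acadl, and in the single replicate that called one for Cpt1b and Hadha. Slc25a20 had none. For the carnitine and β-oxidation genes no own distal peak passed 0.861, and for the other 5 genes the strongest one was at least 1.49 in each replicate. This contrast depends on counting only peaks nearest to the gene’s own start: the Acadl intron peak nearer to Kansl1l had 1.86 and 1.84, and the Hadhb intron peak in the Hadha window 2.06 and 1.54.

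**Figure D2:**
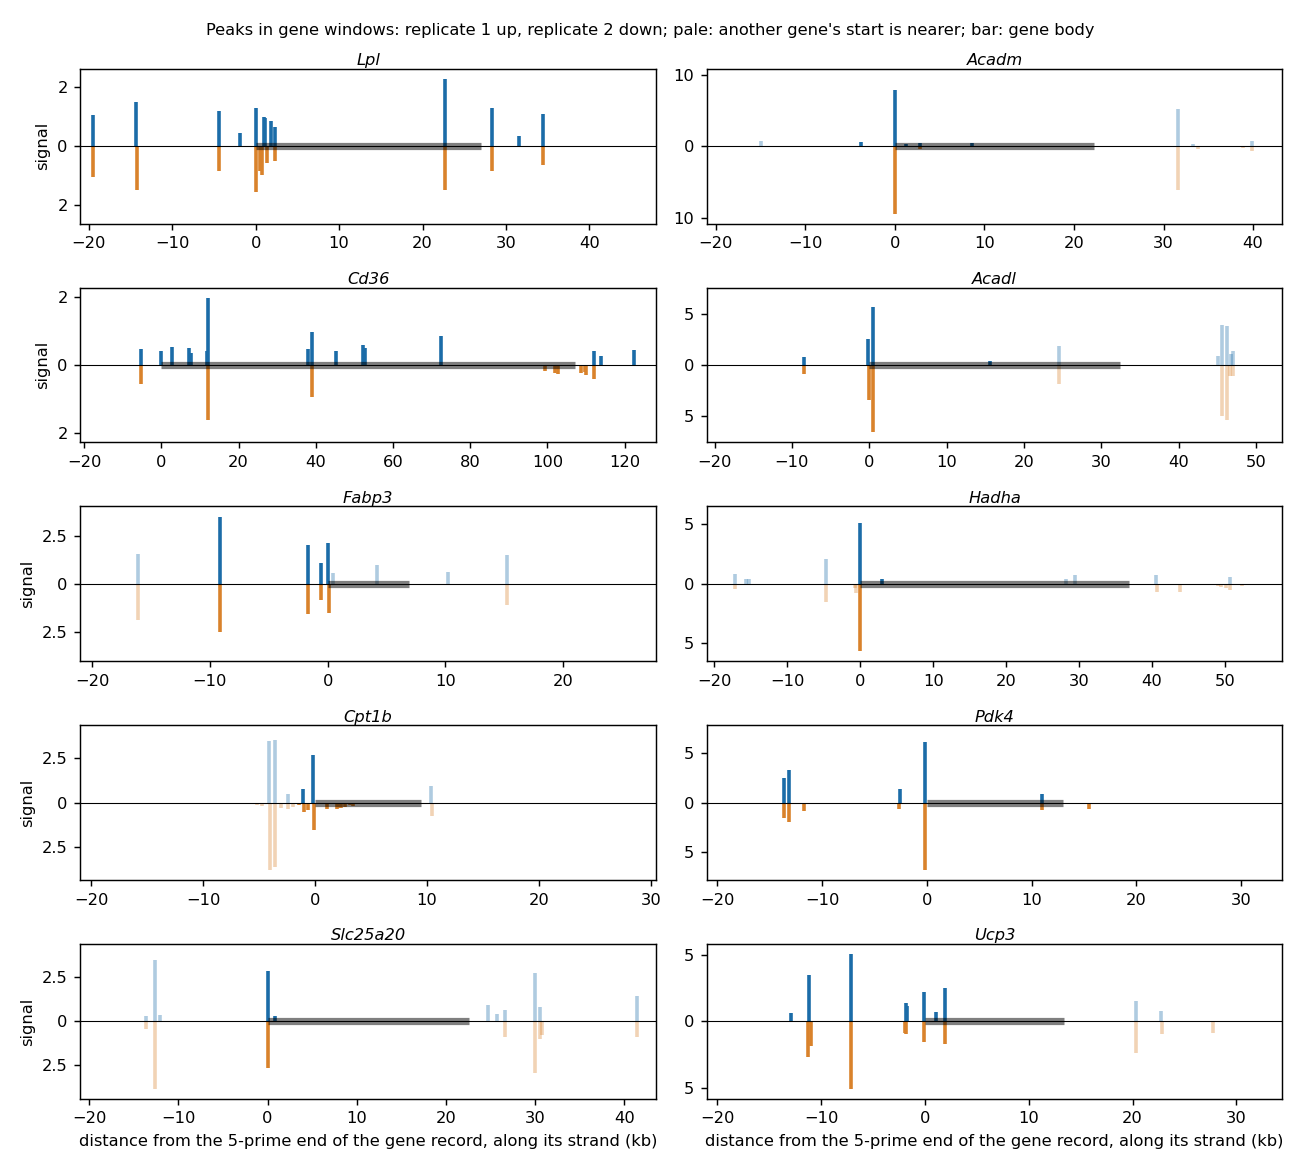
Position and signal of every peak in the 10 windows, with replicate 1 drawn upward and replicate 2 downward in the deposited unit (each panel on its own scale); the x axis is the distance in kb from the 5′ end of the gene record along its strand, the grey bar is the gene body, and pale lines are peaks nearer to another gene's start. The tallest full-colour lines stand at the promoter for Acadm, Acadl, Hadha and Pdk4, and away from it for Cd36, Fabp3 and Ucp3; Cd36 distances in the text are from the nearest of its 6 starts.

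Peaks were dense around the 10 genes. The median was 1.41 peaks per 10 kb of window in replicate 1 and 1.30 in replicate 2, against 0.820 and 0.578 over all protein-coding genes. Each of the 10 lay above the median gene, from percentile 56.3 (Pdk4) to 87.8 (Lpl) in replicate 1 and from 56.1 (Cd36) to 99.1 (Cpt1b) in replicate 2. Of the window peaks 61 and 57 had the start of 1 of the 10 genes as the nearest, and the rest lay nearer to neighbouring genes. The values over all genes likewise count every peak in a window.

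Distal peaks made up 58 of 99 window peaks in replicate 1 (58.6%, interval 48.2 to 68.4) and 56 of 98 in replicate 2 (57.1%, interval 46.7 to 67.1). Over all peaks the shares were 78.2% and 72.4%, so peaks near starts took a larger share around these genes, whose windows were drawn around genes by the rule. Introns held 31 and 25 of the window peaks, sequence between genes 25 and 24, and exons 2 and 7.

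Most window peaks were called in both replicates, but the share read differently against each list. In replicate 1, 64 of 99 overlapped a peak of replicate 2 (64.6%, interval 54.4 to 74.0), against 58.4% of all its peaks. In replicate 2, 64 of 98 overlapped a peak of replicate 1 (65.3%, interval 55.0 to 74.6), against 83.6% of all its peaks. The 34 window peaks of replicate 2 called in that replicate alone came mostly from Cpt1b (13), Hadha (8) and Cd36 (6), and without the Cpt1b window, left out after its values were seen, 58 of 79 overlapped (73.4%, interval 62.3 to 82.7). Shared window peaks had median signals of 1.41 and 1.29, and those called once 0.467 and 0.291.

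**Figure D3:**
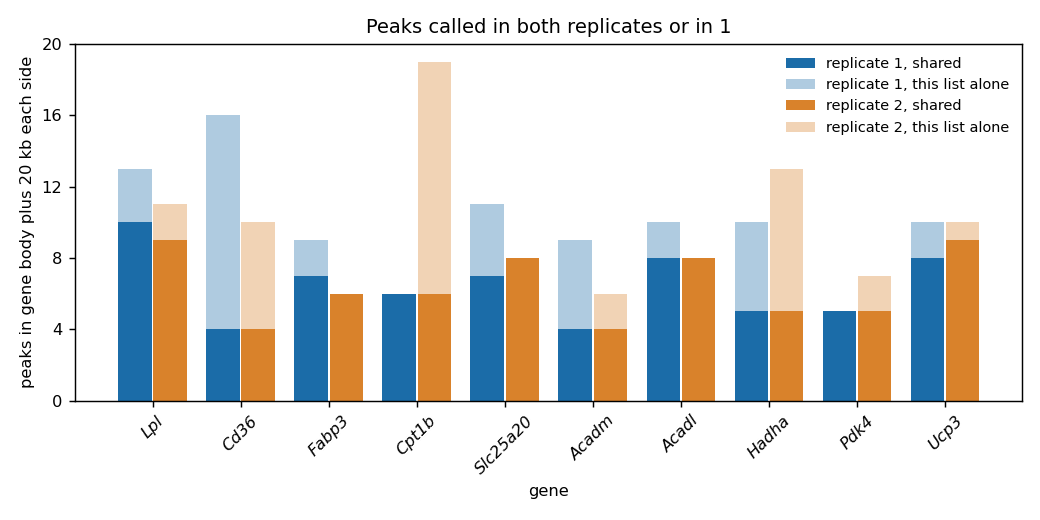
Number of peaks in the window of each gene that overlapped a peak of the other replicate (full colour) or did not (pale), stacked, for replicate 1 (left bar) and replicate 2 (right bar). Cpt1b has 6 peaks in replicate 1 and 19 in replicate 2, with 6 shared in each, and Cd36 has 12 and 6 that were called once.

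Cpt1b was the extreme case. Its 13 peaks of replicate 2 alone lay between 89422415 and 89431120 on chromosome 15, along the gene's 5′ end and Chkb, with signals from 0.112 to 0.391 and a median of 0.229. None of the 13 touched a replicate 1 site in the authors' list with a false discovery rate under 0.05, and 3 held a footprint. They were thus many and weak, while the main promoter peak was lower in replicate 2. The density percentile of Cpt1b moved with them, from 67.9 to 99.1. Over all 10 windows, 4 of 35 peaks called in replicate 1 alone (11.4%) and 4 of 34 of replicate 2 alone (11.8%) touched such a site in the other replicate, against 10.0% and 17.9% of all peaks called once.

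At the 64 shared peaks of replicate 1, log2 of the replicate 2 signal over the replicate 1 signal, relative to the median of all 76733 shared peaks, had a median of -0.09, with 24 above and 39 below that median. The spread over all shared peaks was 0.434 (SD), with 5% of peaks under -0.80 and 5% over 0.62. On the same scale, promoters open in both replicates had a median of 0.11 over all genes, and the Pdk4 promoter was at 0.17. The medians by gene below thus also depend on how many of the peaks lie at promoters. By gene the median was lowest at Pdk4 (-0.66 over 5 peaks), then Fabp3 (-0.39 over 7), Cpt1b (-0.33 over 6) and Ucp3 (-0.31 over 8). It was highest at Acadl (0.18 over 8) and Slc25a20 (0.13 over 7), where most of the peaks lay nearest to starts of neighbouring genes. The only own shared peak of Slc25a20, at its promoter, was at -0.09, and the own shared peaks of Acadl were at 0.14 to 0.45. The values by gene are medians over few peaks, and their own spread was not estimated. In the deposited units, which were scaled separately, summed promoter signals of the muscle fibre markers were 36.6 in replicate 1 and 31.7 in replicate 2. Those of endothelial (5.60 and 7.04), adipocyte (2.15 and 2.82) and macrophage markers (1.73 and 2.49) were higher in replicate 2, while those of fibro-adipogenic (12.6 and 12.8) and mural markers (4.52 and 4.60) were nearly equal. The part of cell composition in the differences between replicates was not tested.

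Footprints numbered 344 in the 10 windows in replicate 1 and 259 in replicate 2. Within peaks they numbered 289 and 228. Of the window peaks 90 of 99 (90.9%) and 72 of 98 (73.5%) held at least 1, against 83.1% and 82.1% of all peaks. Counting a footprint once for each peak it overlaps gave 295 and 230, since some peaks overlap one another. By that count there were 13.2 and 9.93 footprints per kb of peak in the windows, against 11.5 and 11.2 in all peaks. The windows were thus above the list in replicate 1 and below it in replicate 2. The Cpt1b window weighed on the values of replicate 2. It held 4919 of the 23164 bp of window peaks there, and 3 of its 13 peaks called in that replicate alone held a footprint. The shares and rates without that window were not computed.

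Motifs were searched as exact letters on both strands of mm10 under the peaks. Neither DR1 nor the glucocorticoid element (AGAACA and TGTTCT 3 bases apart) nor the NRF1 element GCATGCGC had an exact match in any window peak of the 10 genes. Over all peaks the shares were 0.0365% and 0.0295% for DR1, 0.0274% and 0.0186% for the glucocorticoid element, and 1.02% and 1.32% for NRF1. With elements this rare in all peaks, their absence from so few window peaks says little about these genes. The FOXO element GTAAACA occurred in 1 window peak in each replicate, 1.01% and 1.02%, against 2.52% and 2.26% of all peaks.

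With 1 mismatch allowed, the ERR element occurred in 11 of 99 window peaks of replicate 1 (11.1%) and 8 of 98 of replicate 2 (8.16%), against 5.98% and 5.22% of all peaks, or 6.37% and 5.53% of all peaks weighted to the same widths. DR1 with 1 mismatch occurred in 2 window peaks in each replicate (2.02% and 2.04%, against 0.373% and 0.364%, or 0.405% and 0.398% at the same widths). In each replicate 1 of them was the peak at the C730034F03Rik start, upstream of Cpt1b. The MEF2 consensus matched exactly in 7 window peaks of replicate 1 (7.07% against 2.90%) and 3 of replicate 2 (3.06% against 1.80%). With 1 mismatch it occurred in 23 (23.2% against 16.6%) and 12 (12.2% against 11.7%), so in replicate 2 the share was close to that of all peaks. The counts are small, windows are few, and no test was made.

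Of the commoner elements, most were found in similar shares of window peaks and of all peaks, and AP-1 in a smaller share. The myogenic E-box CAGCTG was in 17 and 18 window peaks (17.2% and 18.4%, against 19.7% and 19.6%). The TEAD element GGAATG was in 14 and 14 (14.1% and 14.3%, against 12.1% and 11.2%), the Sp1 box GGGCGG in 17 and 23 (17.2% and 23.5%, against 16.2% and 21.3%), and the Ets element CCGGAAG in 3 and 3 (3.03% and 3.06%, against 3.38% and 4.27%). The general E-box CACGTG was in 4 and 5 (4.04% and 5.10%, against 4.60% and 4.91%), and MEF3 (TCAGGTT) in 3 and 3 (3.03% and 3.06%, against 2.97% and 2.74%). Weighted to the same widths, the Sp1 shares of all peaks were 17.9% and 24.0%, above those of window peaks in both replicates. For the general E-box they were 4.94% and 5.32%, also above in both. For MEF3 they were 3.17% and 2.85%, above in replicate 1 alone. AP-1 (TGANTCA with G or C at N) was in 3 and 1 (3.03% and 1.02%, against 7.05% and 5.98%). Matches can overlap one another and are letters, not shown binding.

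A list of 48 further pathway genes, chosen by role and with earlier results of these data known, was open too. A promoter peak was found at 48 of them in replicate 1 and 48 in replicate 2. Among all genes the shares given above were 65.6% and 63.5%. Of the 48 promoters 32 were CpG-rich. Because of how the list was chosen, these counts describe it alone. Hadhb, one of the 48, shares the Hadha peak, and Fabp4 is also on the adipocyte list. Their median signal percentile was 71.3 in replicate 1 and 69.1 in replicate 2. By the mean of both replicates the lowest was Gpihbp1, which holds lipoprotein lipase on endothelium, at percentiles 8.37 and 12.1, and the highest Esrra at 99.8 and 99.6; Gpihbp1 was named after its values were seen.

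Among uptake genes the strongest promoters were those of Lmf1, a factor that matures lipases (6.75 and 6.53), and Slc27a4, a fatty acid transport protein (6.12 and 6.28). Acsl1, the main acyl-CoA synthetase of muscle, which activates fatty acids, had 11.9 and 13.1, whereas Acsl5, next in that role, had 0.766 and 1.16. In the carnitine role Slc22a5, the plasma membrane carnitine transporter, had 10.5 and 12.8 and Crat, carnitine acetyltransferase, 6.23 and 6.35. All 4 carnitine genes and all 9 β-oxidation genes were open, with median percentiles of 77.9 and 76.3 and of 63.5 and 64.1.

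Among the 9 further β-oxidation genes, Eci1 and Eci2, the isomerases for unsaturated fatty acids, had the strongest promoters by mean percentile. Their signals were 6.45 and 6.46 (Eci1) and 6.29 and 6.26 (Eci2), below those of Acadm (7.88 and 9.40) in both replicates. Etfa and Etfb, which pass electrons from the dehydrogenases to the respiratory chain, had 5.93 and 6.38 and 5.55 and 6.29. Acacb, which makes the malonyl-CoA that inhibits Cpt1b, had 5.57 and 6.41, and Mlycd, which removes it, 5.61 and 5.26. Both arms of this control thus had open promoters.

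Pdk1, another pyruvate dehydrogenase kinase, had 8.75 and 10.1, above Pdk4 in both replicates, and Pdp1, a phosphatase that reverses their action, 6.92 and 7.16. Lipe and Pnpla2, the lipases of stored triglyceride, had 6.38 and 6.56 and 5.76 and 5.52. Among regulators Esrra, which encodes ERRα, had 14.0 and 14.8, and Ppard, the main PPAR of muscle, 7.27 and 8.23. The 7 regulators were spread widely, with median percentiles of 38.1 and 36.2. Ppara, which encodes another PPAR, was at percentiles 71.4 and 68.8. Ppargc1a, which encodes PGC-1α, was at percentiles 25.7 and 20.2, Rxra, the partner of PPARs, at 28.5 and 28.4, and Pparg, the PPAR of fat cells, at 15.1 and 14.2. Ppara and the latter 3 genes were named after their values were seen.

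**Figure D4:**
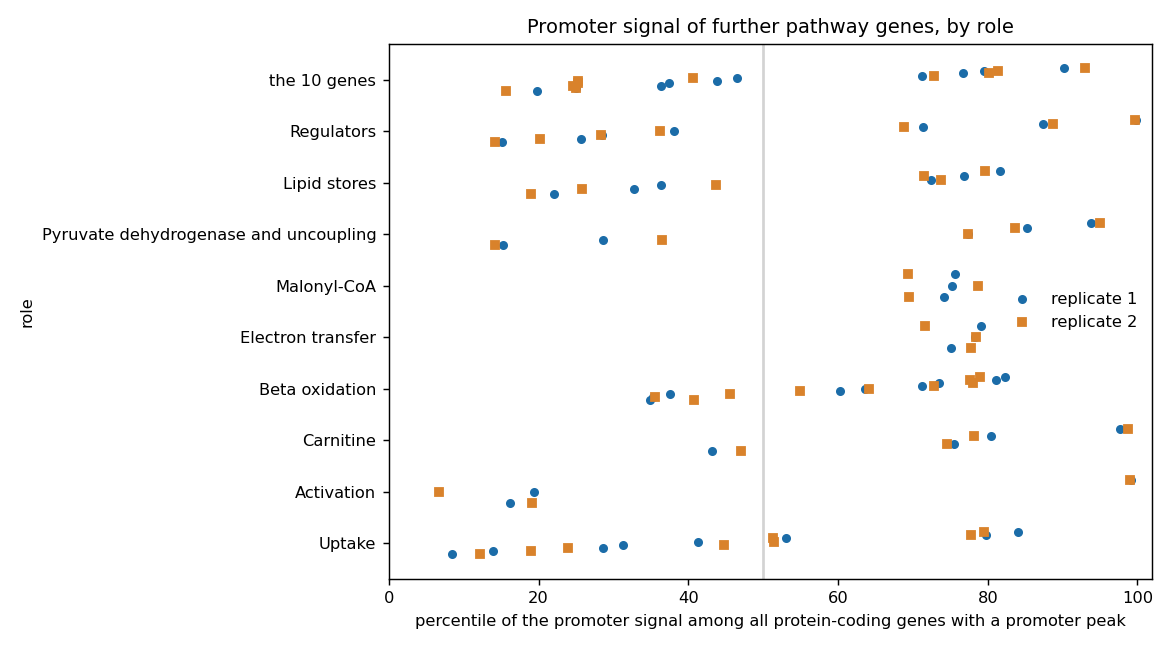
Percentile of the strongest promoter signal of each of 48 further pathway genes among all protein-coding genes with a promoter peak, by role, with the 10 genes in the top row; circles are replicate 1 and squares replicate 2, a gene's 2 symbols share a height, and the grey line is percentile 50. The electron transfer and malonyl-CoA rows lie wholly to the right of the line, the uptake and regulator rows spread across it, and the 10 genes split into 6 below and 4 above.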

How the data were processed

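Per the labels, the assembly was mm10, and the peaks, sites and footprints were deposited per sample. The caller, aligner and scale are not given in the sources used here. Each deposited peak has a signal value (column 7). The deposited footprints carry a p-value type column that is constant at 0.01, and the deposited sites carry false discovery rates below 0.05. The larger of the 2 deposited peak lists per sample was used (131398 and 91567 peaks), with 339656 and 234091 footprints. The alleles of the F1 hybrid were not separated in the files used. Peaks and gene records were joined with Python 3.11.15 and bedtools 2.31.1 on GENCODE M21 (1 record per symbol), peaks being shared at 1 bp of overlap. No peak ended beyond its chromosome in the reference. Overlap, distance and motif functions were checked on simulated data, and all 21 checks gave the planted answers. Named were the 10 genes, the 2 highest promoters by mean percentile in each pathway role, and neighbours sharing a promoter peak or holding a printed one. Sequences came from the strongest shared peak outside annotated UTRs with footprints in both replicates, where a motif lay inside a footprint, and those of Pdk4 and Ucp3 were added after their values were seen. The genes, lists and motifs were chosen with earlier results of these data known. Alternatives changed the peak list, promoter width, flank, overlap, motif rule and replicate.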

Additional observations from a re-analysis of the deposited data

How the results depend on the processing

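Values here are means of both replicates unless a replicate is left out. The 10 open promoters of the named genes stayed 10 with the smaller peak list, the better 50% of the peaks, the same number of top peaks and promoters of 500 and 2500 bp, and were 10 and 9 with the 5′-most start alone, where Cd36 had none in replicate 2. Of the 48 further pathway genes, 46 and 46 were open with that start alone, 47 and 47 with the better 50% of the peaks and 48 and 46 with the smaller list. Most counts moved with the size of the window or of the list. Without flanks there were 33.5 peaks, 17.5 shared, 19 distal, 84.5 footprints, 1.08 peaks per 10 kb and 47.6% of peaks with any of the 13 motifs, in place of 98.5, 64, 57, 301.5, 1.36 and 48.7%. With 5 kb they were 60.5, 36, 35, 177.5, 1.46 and 50.5%. With 50 kb there were 96.5 shared and 92 distal peaks, 1.09 per 10 kb and 52.8%. Counting own peaks alone gave 59 peaks, 38 shared, 163.5 footprints, 0.797 per 10 kb and 46.7%. The smaller list left 37.5 distal peaks, 1.08 per 10 kb and 55.1%, and the better 50% of the peaks left 61 peaks, 32.5 distal and 1.04 per 10 kb. The motif share was 23.9% for matches inside a footprint and 59.4% with 1 mismatch in motifs of 9 or more letters. Without the Cpt1b window, an alternative chosen after seeing the data, it was 48.3%. Leaving out either replicate gave 98 to 99 peaks, 64 shared, 259 to 344 footprints and a median promoter signal of 2.11 to 2.76. The median ratio of replicates, -0.09, was -0.03 with 50% overlap, -0.22 relative to shared promoter peaks and -2.40 percentile points by rank. No paired analysis was possible because there is a single group of 2. Depth is unknown, and 2 samples of 1 group allow no test.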

Other observations

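The windows also held promoters of neighbouring genes, named here after their values were seen, and those of Arih2 in the Slc25a20 window and of Chkb in the Cpt1b window were stronger than the promoter of the fatty acid gene beside them in both replicates. Rabggtb, which encodes a subunit of the enzyme that attaches geranylgeranyl lipids to Rab proteins and lies in the Acadm window, had promoter signals of 5.20 in replicate 1 and 6.08 in replicate 2. Kansl1l, in the Acadl window, had 3.91 and 5.39. Arih2 and Prkar2a, in the Slc25a20 window, had 3.52 and 3.83 and 2.76 and 2.93. Ucp2, the paralogue whose record lies 6904 bp from that of Ucp3, had 1.57 and 2.36 (percentiles 28.6 and 36.5), higher in replicate 2, whereas Ucp3 had 2.18 and 1.55, lower in replicate 2. Whether this difference between neighbours is more than noise between libraries was not tested.

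In the Hadha window, 8 peaks were called in replicate 2 alone, with signals from 0.123 to 0.738, and 5 in replicate 1 alone, from 0.406 to 0.721. In the Cd36 window the peaks called once differed in position: those of replicate 2 alone stood between 17778661 and 17789460 on chromosome 5, around the 3′ end of the gene, and those of replicate 1 alone lay on both sides of that stretch, from 17766141 to 17888944.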
